A study of Mus musculus with 4 samples.

Results

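The genes described here are 10 members of the tetraspanin family, Cd9, Cd81, Cd63, Cd82, Cd37, Cd53, Cd151, Tspan3, Tspan4 and Tspan14, chosen by symbol from a table of 17194 genes. All 10 were in the table, and all 10 were among the 15651 genes that passed the filter on low counts. Polyadenylated RNA had been sequenced from bone marrow-derived macrophages, primary mouse cells grown with RANKL, which drives osteoclast formation, and collected at day 2. The 4 libraries form 2 groups of 2, siHells, which received an siRNA against the chromatin remodeller Hells, and siControl, and both groups had RANKL. The sources used here state neither strain, age and siRNA sequence nor how many mice or cultures were taken. A p-value therefore covers the spread between these 4 libraries alone, and that spread may be technical. The question is what Hells depletion does to transcripts early in osteoclast formation. The labels name a SMARTer and a TruSeq Stranded library kit for every library, and the strand setting of the counting is unknown, so reads of genes that overlap on opposite strands cannot be told apart. A gene with no read in any 1 library was not analysed here.

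Tetraspanins are small proteins that cross the membrane 4 times and expose a small and a large loop outside the cell. They have few ligands of their own. Instead they bind each other and partner proteins, among them integrins, immunoglobulin-like EWI proteins and the protease ADAM10, and so set where those partners sit and how they traffic. In mouse macrophages CD9 and CD81 are best known for their part in cell fusion: mice lacking both form multinucleated cells in the lung and more osteoclasts, while other work in mouse precursor cultures found that CD9 favours osteoclast formation. CD63 marks late endosomes, lysosomes and the vesicles that cells release from them.

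Total counts were between 55012697 and 55642819 in siHells and between 48873635 and 53502523 in siControl. Hells itself, the siRNA target, stood at 15.2 and 14.6 CPM (read counts scaled by TMM-adjusted library size) in the siHells libraries, against 29.3 and 30.0 CPM in the siControl libraries. Its log2 fold change, siHells over siControl here and throughout, was -0.99 (SE 0.068, edgeR adjusted p = 5.96e-09). Of 9 tested macrophage markers 7 were higher and Cd68 and Ptprc lower, where 29.0% of all genes were higher and 29.5% lower. Their sums were 23744 to 24410 CPM in siHells and 16116 to 16266 CPM in siControl. Most of these sums came from Lyz2, with means of 17284 CPM in siHells and 11347 CPM in siControl. All 10 osteoclast markers were lower in siHells, with sums of 1397 to 1436 CPM against 8662 to 8727 CPM in siControl. Of 7 tested stromal markers 6 were higher and Col3a1 lower, with sums of 1831 to 1859 CPM in siHells and 1041 to 1067 CPM in siControl. In bulk RNA a change in the number of cells of a type and a change in RNA per cell cannot be told apart.

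The promoters of the 2 members that moved most in each direction are shown here, since the study's siRNA target is known for its role in DNA methylation. Each runs from 250 bases before to 50 bases after a RefSeq start on build GRCm38.p6, read 5′ to 3′ on the gene's strand, with every CpG in capitals.
Cd9, chr6:125494711-125495010, minus strand: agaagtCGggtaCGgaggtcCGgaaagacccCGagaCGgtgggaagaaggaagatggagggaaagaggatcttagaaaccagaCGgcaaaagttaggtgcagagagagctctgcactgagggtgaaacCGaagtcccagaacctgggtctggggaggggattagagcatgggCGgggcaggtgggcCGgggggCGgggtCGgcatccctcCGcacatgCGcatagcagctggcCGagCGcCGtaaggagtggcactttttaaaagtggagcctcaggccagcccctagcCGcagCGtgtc
Cd63, chr10:128909095-128909394, plus strand: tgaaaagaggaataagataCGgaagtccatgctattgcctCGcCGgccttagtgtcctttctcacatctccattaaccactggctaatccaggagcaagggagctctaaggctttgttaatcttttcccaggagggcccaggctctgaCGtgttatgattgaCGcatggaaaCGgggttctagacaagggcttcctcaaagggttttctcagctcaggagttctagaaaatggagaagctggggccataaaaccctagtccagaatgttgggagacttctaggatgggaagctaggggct
Cd81, chr7:143052500-143052799, plus strand: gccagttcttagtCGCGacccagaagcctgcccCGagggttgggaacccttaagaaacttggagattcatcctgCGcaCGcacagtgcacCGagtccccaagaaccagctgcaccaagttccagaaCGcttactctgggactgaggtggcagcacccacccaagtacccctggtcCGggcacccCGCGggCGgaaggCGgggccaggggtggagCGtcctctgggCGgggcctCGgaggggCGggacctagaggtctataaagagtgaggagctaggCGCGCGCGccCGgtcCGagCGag
Tspan3, chr9:56161021-56161320, minus strand: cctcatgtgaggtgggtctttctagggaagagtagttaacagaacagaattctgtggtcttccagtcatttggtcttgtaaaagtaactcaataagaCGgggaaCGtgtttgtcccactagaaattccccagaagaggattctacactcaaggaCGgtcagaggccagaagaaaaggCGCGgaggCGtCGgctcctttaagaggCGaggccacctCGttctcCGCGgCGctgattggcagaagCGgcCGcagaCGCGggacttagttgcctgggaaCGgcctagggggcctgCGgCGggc

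The Cd9, Cd81 and Tspan3 windows hold 18, 23 and 19 CpGs, against a median of 7 over 32817 promoter windows of the same length, and the Cd63 window holds 6. Of all windows, 29.7% have at least as many CpGs as that of Cd9, 21.5% as many as that of Cd81 and 28.0% as many as that of Tspan3. Windows with at least 16 CpGs occur both in the member that fell most and in the pair that rose most. They also occur in members that changed less: 1 window each of Tspan14, Tspan4, Cd151 and Cd82 holds 33, 29, 20 and 16 CpGs. Other windows of those genes hold 3 to 15, and the windows of Cd37 and Cd53 hold 8 and 4. The GC box GGGCGG, searched on both strands, occurs 2 times in the Cd9 window and 3 times in the Cd81 window, where it overlaps CpGs, and is not in the Cd63 and Tspan3 windows. It is present in 35.6% of all windows. The NFAT core GGAAA occurs 2 times each in the Cd9 and Cd63 windows and is not in those of Cd81 and Tspan3, and 61.3% of all windows hold it. The PU.1 core GAGGAA, which can overlap the NFAT core, occurs 2 times in the Cd63 window and not in the other 3, against 28.3% of all windows. Neither the AP-1 motif TGANTCA nor the steroid receptor core ACANNNTGT was found in these 4 windows, against 7.81% and 6.85% of all. RefSeq promoter windows were matched for all 10 members. A match says only that the letters are present, and DNA methylation was not tested.

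All 10 members differed between the groups, 6 higher and 4 lower in siHells, and the siHells and siControl libraries did not overlap for any of them. This has to be read against the whole table, in which 58.5% of genes were called (29.0% higher and 29.5% lower) and 78.5% had groups that did not overlap (39.1% with siHells above and 39.4% with siHells below). Among the 4100 genes whose mean level was at or above that of the lowest member, 77.5% were called (40.9% higher and 36.6% lower). The median log2 fold change of the members was 0.29, against -0.0043 over all genes tested, and the median size of change was 0.44 against 0.34. When tested against a 1.5-fold change rather than no change, 3 members passed, Cd81 and Tspan3 higher and Cd9 lower, where 15.1% of all genes (8.06% higher, 7% lower) and 17.3% of the genes at member levels did.

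**Figure D1:**
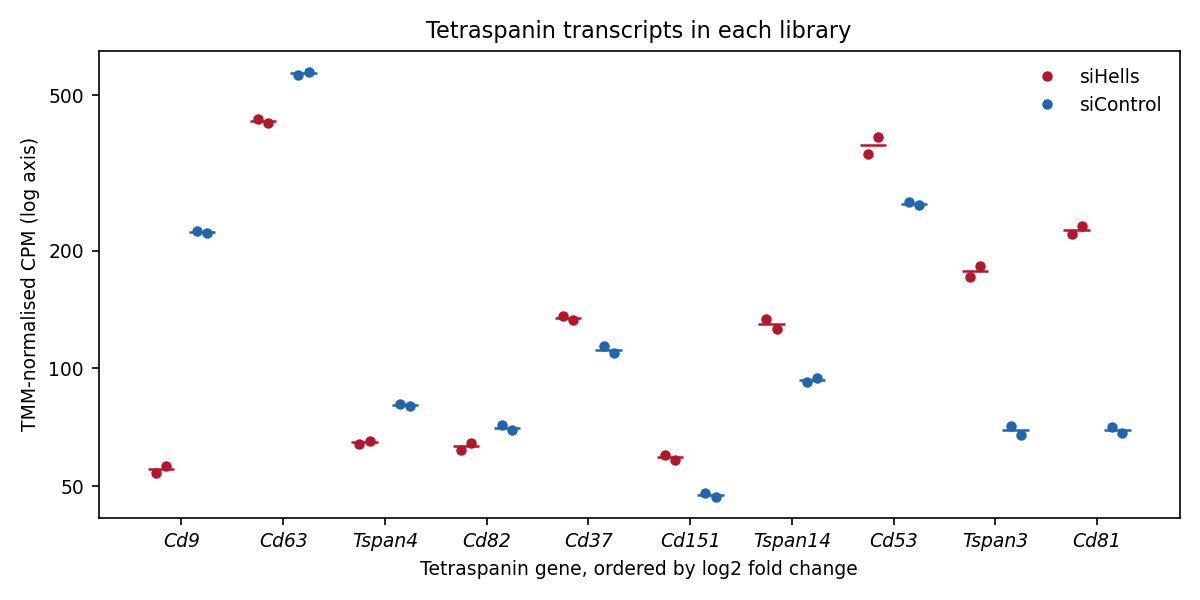
TMM-normalised CPM of the 10 tetraspanin genes (vertical log axis) in each siHells library (red) and siControl library (blue), with short lines at the group means, ordered from the largest fall to the largest rise. Cd9 stood at 54.1 and 56.3 CPM in siHells against 224 and 222 CPM in siControl, Cd81 at 221 and 232 CPM against 70.6 and 68.3 CPM, and no gene had overlapping groups.

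Cd9 and Cd81, close relatives that bind the same EWI proteins, moved in opposite directions. Cd9 had 54.1 and 56.3 CPM in the siHells libraries, against 224 and 222 CPM in the siControl libraries. Both siHells libraries were far below both siControl libraries, by 3.94-fold to 4.15-fold for the pairs of libraries. The log2 fold change was -2.02 (SE 0.039, 95% interval -2.10 to -1.93, edgeR adjusted p = 1.81e-15), and 2.74% of all tested genes changed by more. The gene occupies GRCm38 chromosome 6, positions 125460266 to 125494791, minus strand. Its fall moved with the osteoclast markers, all 10 of which were lower in siHells, and the part of osteoclast number in it was not tested. Cd9 is also a platelet and megakaryocyte protein. Of 7 tested markers of those cells, 4 were higher and 3 not called, where 29.0% of all genes were higher and 29.5% lower. Their sums were 165 to 167 CPM in siHells and 50.3 to 54.5 CPM in siControl, most of it from Pf4. The part of such cells in the change of Cd9 was not tested.

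Cd81 had 221 and 232 CPM in the siHells libraries, against 70.6 and 68.3 CPM in the siControl libraries. Each siHells library exceeded each siControl library by 3.12-fold to 3.40-fold. The log2 fold change was 1.70 (SE 0.040, 95% interval 1.62 to 1.79, edgeR adjusted p = 1.54e-14), and 4.20% of tested genes changed by more. The gene occupies GRCm38 chromosome 7, positions 143052739 to 143067934, plus strand. The noncoding R74862 overlaps it on the opposite strand, but stood at only 1.13 ± 0.149 CPM in siHells and 0.530 ± 0.0995 CPM in siControl (SD, n = 2 each). Cd81 is widely made outside the blood, and the stromal markers given above were also higher. Their part in its rise was not tested. Per kilobase of exon, Cd81 transcripts stood at 2.90 and 2.92 times those of Cd9 in the siHells libraries, against 0.223 and 0.218 times in the siControl libraries. For such a single value an exact permutation test of 2 libraries against 2 cannot give a p below 0.333. The sum of both genes per kilobase was 103 and 108 CPM in siHells, against 134 and 132 CPM in siControl.

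Cd63, the tetraspanin of vesicles and endosomes, had 434 and 426 CPM in siHells, against 564 and 574 CPM in siControl, a fall of 1.32-fold (log2 fold change -0.40, SE 0.029, edgeR adjusted p = 7.89e-09). The fall in Cd63 was small beside that in Cd9, and 43.5% of all tested genes changed by more. The genes listed as working with CD63 in vesicles were counted as well: of 17 tested, 9 were higher, 2 lower and 6 not called, where 29.0% of all genes were higher and 29.5% lower. That list was chosen with earlier results of these data known, so its shares cannot be read as a test. Lamp1 and Lamp2, abundant proteins of the lysosome membrane, were higher by 0.85 and 0.64 on the log2 scale, and so was Sdcbp, the adaptor syntenin that binds the CD63 tail, by 0.26. The 2 that fell were Anxa2, a membrane-binding annexin (-0.92), and Tsg101, a component of the sorting machinery ESCRT-I (-0.15). Tspan4, known for its part in migrasomes, the vesicles left behind by moving cells, had 64.0 and 65.3 CPM in siHells, against 81.1 and 80.3 CPM in siControl (log2 fold change -0.32, SE 0.043, edgeR adjusted p = 1.15e-05). On the opposite strand Tspan4 overlaps Chid1, a gene with a chitinase-like domain that moved the other way, with 53.8 ± 2.76 CPM in siHells and 41.3 ± 2.84 CPM in siControl (SD, n = 2 each). How reads were divided between this pair was not tested.

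Tspan3 was the other member with a large rise. It had 171 and 183 CPM in the siHells libraries, against 71.0 and 67.7 CPM in the siControl libraries, so that the siHells libraries were 2.41-fold to 2.71-fold higher for the pairs of libraries. The log2 fold change was 1.35 (SE 0.044, 95% interval 1.26 to 1.45, edgeR adjusted p = 7.00e-13), and 7.35% of tested genes changed by more. Tspan3 is a less studied, widely made member, required in mouse models for the growth of acute myeloid leukaemia. Its nearest tested neighbours on chromosome 9 did not move as one. Peak1, a pseudokinase, was higher (log2 fold change 0.61), and Pstpip1, an adaptor of the actin skeleton, was lower (-0.93).

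The tetraspanins of blood cells, Cd53 and Cd37, were higher by modest amounts. Cd53, which is made on most white blood cells, had 353 and 391 CPM in siHells, against 266 and 261 CPM in siControl. The siHells libraries differed from each other more than the siControl libraries did, and both were above siControl (log2 fold change 0.50, SE 0.043, edgeR adjusted p = 7.40e-07). Cd37, which in mice restrains signalling by the fungal receptor Dectin-1, had 136 and 133 CPM in siHells, against 114 and 110 CPM in siControl (log2 fold change 0.26, SE 0.038, edgeR adjusted p = 2.41e-05). On the opposite strand Cd37 overlaps Tead2, which had 2.97 ± 0.100 CPM in siHells and 2.13 ± 0.303 CPM in siControl (SD, n = 2 each). Both Cd37 and Cd53 are also made by B and T cells. The 3 tested B cell markers summed to 14.4 to 15.7 CPM in siHells and 34.2 to 34.6 CPM in siControl, and the 3 tested T cell markers to 27.5 to 27.9 CPM in siHells and 71.2 to 76.0 CPM in siControl, opposite in direction to Cd37 and Cd53. Most of the T cell sum came from Cd4, with 27.1 ± 0.315 CPM in siHells and 71.0 ± 3.79 CPM in siControl (SD, n = 2 each). Among the B cell markers Ighm was lower, with 5.28 ± 0.539 CPM in siHells and 21.7 ± 0.254 CPM in siControl, while Cd79b, with 4.50 ± 0.256 CPM in siHells and 4.36 ± 0.0611 CPM in siControl, was not called.

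Cd151 and Cd82, both known for work on cell adhesion, also moved in opposite directions. Cd151, the tetraspanin bound to laminin-binding integrins, had 60.2 and 58.4 CPM in siHells, against 48.0 and 47.0 CPM in siControl (log2 fold change 0.32, SE 0.048, edgeR adjusted p = 3.94e-05). Cd82, first known as a suppressor of metastasis, had 62.0 and 64.4 CPM in siHells, against 71.5 and 69.4 CPM in siControl. Its log2 fold change of -0.16 (SE 0.046, edgeR adjusted p = 0.00816) was the smallest of the members, and 74.1% of tested genes changed by more. Without siControl replicate 1 the change in Cd82 was -0.14 with an edgeR adjusted p = 0.0727, so the call, though not the direction, rests on that library. Over its 16 alternatives the adjusted p of Cd82 ranged between 0.000547 and 1. Tspan14, which carries the protease ADAM10 to the cell surface, had 133 and 126 CPM in siHells, against 92.1 and 94.7 CPM in siControl (log2 fold change 0.48, SE 0.041, edgeR adjusted p = 8.06e-08).

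**Figure D2:**
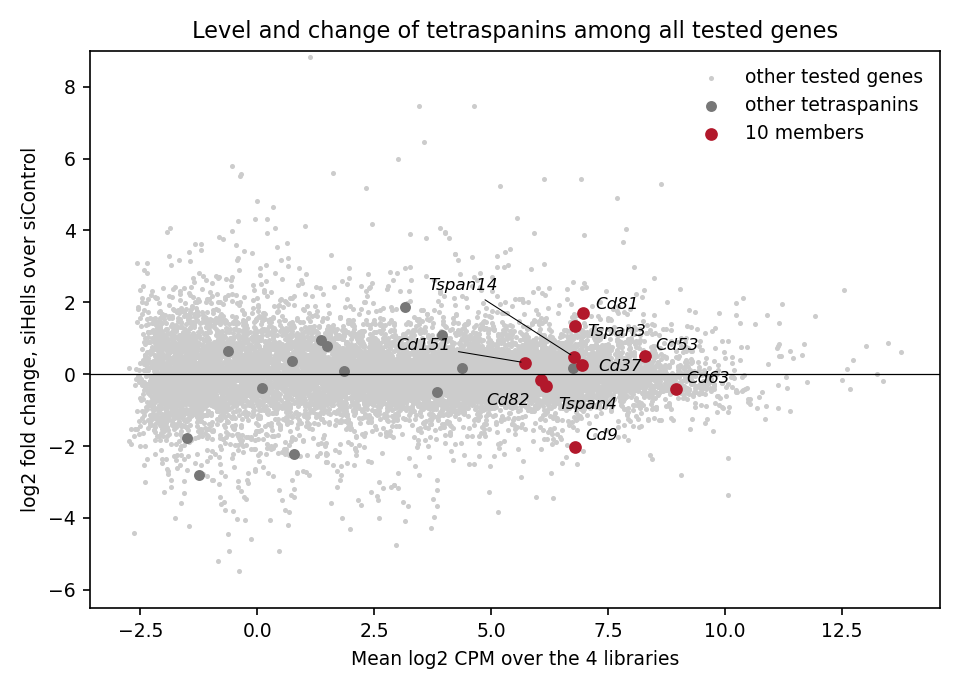
The log2 fold change, siHells over siControl (vertical axis), against the mean log2 CPM over the 4 libraries for every tested gene (light grey), the 10 members (red) and the other tested tetraspanins (dark grey). The members have mean log2 CPM of 5.73 to 8.95, and Cd81, Tspan3 and Cd9 stand away from 0 while the other 7 lie between -0.40 and 0.50.

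Levels of different genes are compared here per kilobase of annotated exon, as CPM per kilobase. In siHells, Cd53 led with 214 ± 15.4 CPM per kilobase, followed by Cd63 with 117 ± 1.62 and Cd81 with 78.6 ± 2.75 (SD, n = 2 each). In siControl, Cd63 led with 155 ± 1.78 CPM per kilobase, followed by Cd53 with 151 ± 1.87 and Cd9 with 109 ± 0.827 (SD, n = 2 each). Cd9 was thus the third member in siControl and only the 8th in siHells, whereas Cd81 was the third in siHells and the 7th in siControl. Tspan3 was the lowest of the 10 in siControl, at 16.2 ± 0.556 CPM per kilobase, and the 5th in siHells, at 41.4 ± 2.02. Below the third place the siHells order ran Tspan14, Tspan3, Cd37, Tspan4, Cd9, Cd151 and Cd82, and the siControl order ran Tspan4, Tspan14, Cd37, Cd81, Cd82, Cd151 and Tspan3. Libraries of neighbouring genes overlapped only for Cd151 and Cd82 in siHells and for Cd81 and Cd82 in siControl.

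Summed over the 10 members, the level was 625 and 649 CPM per kilobase in siHells, against 603 and 598 CPM per kilobase in siControl. The make-up of that sum differed more than its size. Cd9 made up 4.24% and 4.25% of it in siHells, against 18.2% in each siControl library, and Cd81 made up 12.3% and 12.4% against 4.07% and 3.97%. Cd53 rose to 32.5% and 34.6% of the sum in siHells, against 25.3% and 25.1% in siControl, and Cd63 held 18.9% and 17.8% against 25.4% and 26.1%. By per-length level Cd53 was exceeded by 1.15% of 14583 genes with a length in siHells and by 1.79% in siControl. The length used matters: with the longest annotated transcript in place of all exons, 3 of the 10 members kept their rank in siHells and 2 in siControl. On that scale Cd9 was the 7th in siHells and the 2nd in siControl, ahead of Cd53 there. Cd81 was the third in siHells and the 6th in siControl, and Tspan3 the 4th in siHells and the 9th in siControl. Cd53 has 1 annotated transcript, of 1742 bases, whereas the exons of Cd63 cover 3682 bases over 6 transcripts. The longest transcript of Cd63 has 2894 bases in 1 exon. The order and shares of Cd53 and Cd63 thus rest on these lengths. Before scaling by length, Cd63 had a mean of 430 CPM and Cd53 of 372 CPM in siHells, against 569 and 264 CPM in siControl.

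**Figure D3:**
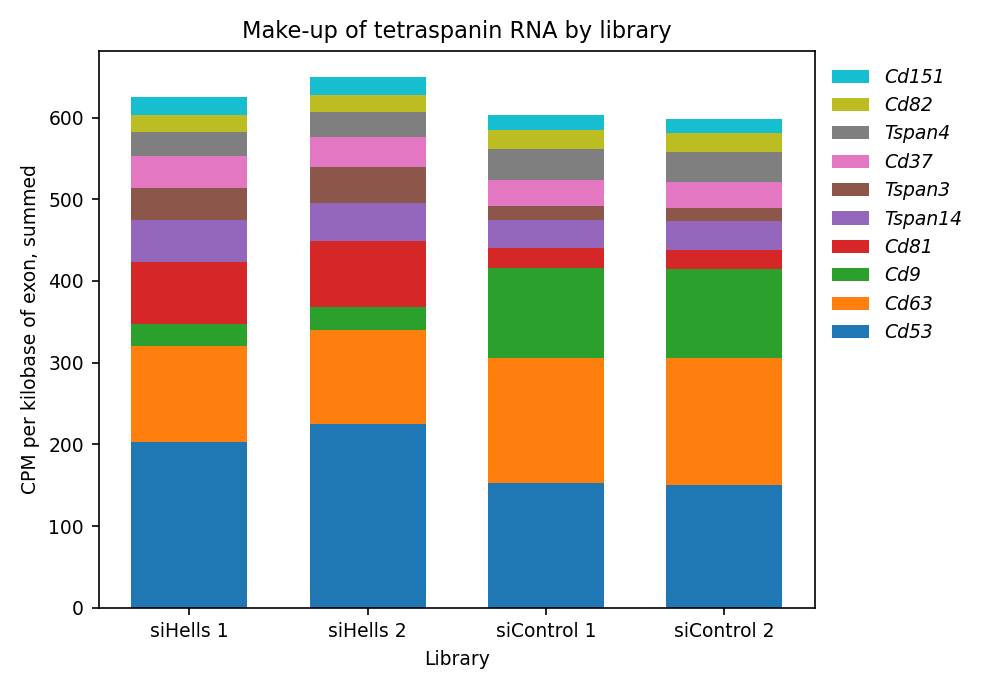
CPM per kilobase of exon for the 10 members, stacked, in each of the siHells and siControl libraries. The total lies between 598 and 649 in all 4 libraries, while the Cd9 segment is thin and the Cd81 segment wide in siHells and the reverse holds in siControl.

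Outside the 10, 16 of 21 other tetraspanins listed were in the table and 14 could be tested. Of these 5 were higher and 4 lower, or 64.3% called, near the 58.5% of all genes. Of the remaining 5, Tspan2, Tspan6, Tspan12 and Tspan13 were low, with means of 3.71 CPM or less in either group, and Tspan17 had a log2 fold change of 0.17 (edgeR adjusted p = 0.0547). Their median log2 fold change was 0.18, against -0.0043 over all genes. Tspan33, studied in B cells and red cell precursors, had 17.0 ± 0.781 CPM in siHells and 4.63 ± 0.474 CPM in siControl (SD, n = 2 each; log2 fold change 1.87, edgeR adjusted p = 5.48e-10). Tspan32, a tetraspanin of blood cells, had 22.7 ± 0.362 CPM in siHells and 10.5 ± 1.40 CPM in siControl (log2 fold change 1.10). The other rises were in Rom1, known from the photoreceptor disc (0.95), Tspan9 (0.77) and Tspan31 (0.18), the last with 115 CPM in siHells and 101 CPM in siControl. Tspan7, which in mouse osteoclasts is known for its part in podosome organisation, fell to 0.769 ± 0.139 CPM in siHells, against 3.63 ± 0.214 CPM in siControl (SD, n = 2 each; log2 fold change -2.23, edgeR adjusted p = 3.88e-07). Tspan10, with 7 and 8 counts in siHells and 50 and 53 counts in siControl, fell by 2.80 on the log2 scale, Tspan18 by 1.79 and Tspan5 by 0.50.

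**Figure D4:**
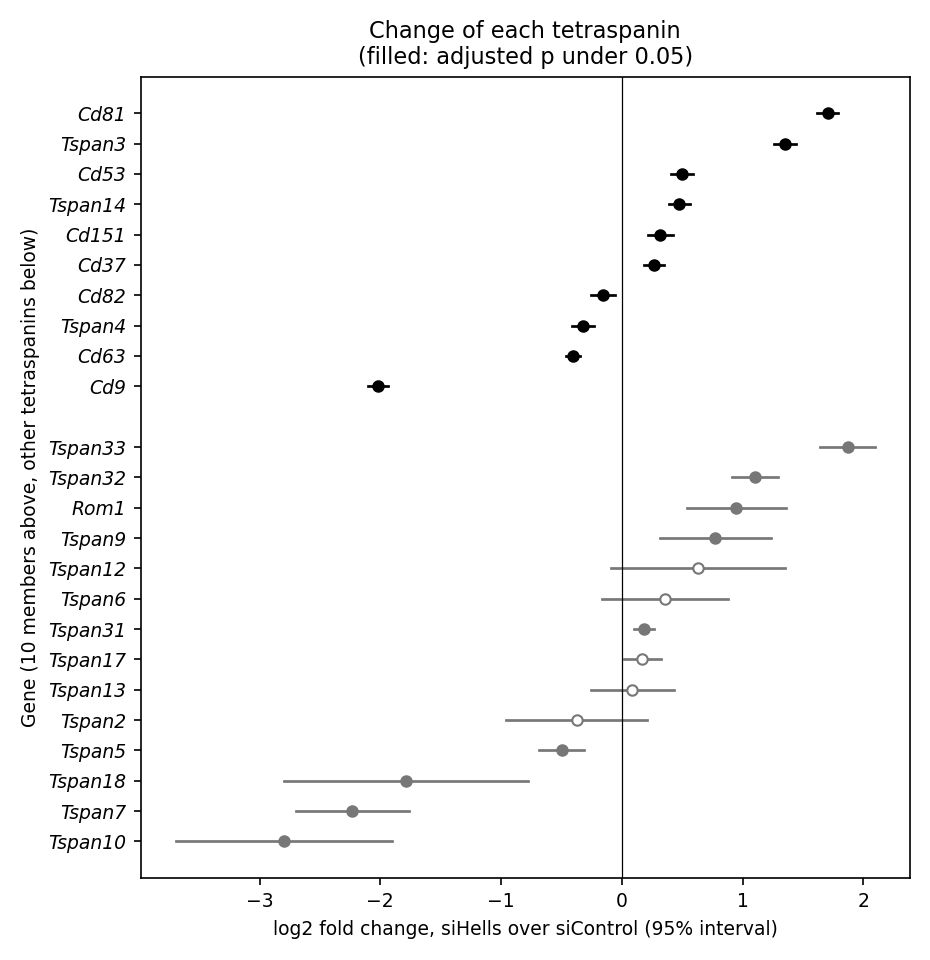
The log2 fold change, siHells over siControl (horizontal axis), with its 95% interval for the 10 members (black, upper block) and 14 other tested tetraspanins (grey, lower block). Filled points passed an adjusted p of 0.05, as all 10 members and 9 of the 14 others did, and both blocks hold genes on either side of 0.

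Tspan14 belongs with Tspan5, Tspan10, Tspan15, Tspan17 and Tspan33 to the TspanC8 group, which carries ADAM10. The group was split, with Tspan14 and Tspan33 higher, Tspan5 and Tspan10 lower and Tspan17 not called. Tspan15 was not analysed here. Adam10 itself had 226 ± 9.27 CPM in siHells and 235 ± 4.28 CPM in siControl (SD, n = 2 each). Its log2 fold change was -0.05 with a 95% interval of -0.13 to 0.02 (edgeR adjusted p = 0.212), and its relative Adam17 had -0.03 (edgeR adjusted p = 0.367).

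Of the 78 tested genes on the lists of partners, fusion genes and genomic neighbours, with each gene counted once and tetraspanins left out, 27 were higher and 29 lower, or 34.6% and 37.2%, against 29.0% and 29.5% of all genes. Among the 4100 genes at or above the level of the lowest member, 40.9% were higher and 36.6% lower. With library totals in place of TMM the counts of listed genes were 20 higher and 38 lower. All genes shifted the same way, to 3773 higher and 5508 lower, from 4541 and 4612 with TMM. The EWI partners of CD9 and CD81 moved by small amounts: Ptgfrn was higher (log2 fold change 0.38) and Igsf8 lower (-0.12). Integrin chains were split, 4 higher and 4 lower of 10. The laminin-binding chains Itga6 and Itga3, partners of CD151, were higher. Itga6 had 340 ± 2.41 CPM in siHells and 145 ± 5.69 CPM in siControl (SD, n = 2 each; log2 fold change 1.23, edgeR adjusted p = 1.53e-13). Itga3 was higher by 2.23 from a low level of 0.926 ± 0.208 CPM in siControl. Their common beta chain Itgb1 had a log2 fold change of -0.01 (95% interval -0.07 to 0.05). The chains of the osteoclast vitronectin receptor fell, Itgb3 by 1.85 and Itgav by 1.17.

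Of 15 other surface partners, 10 were lower and 3 higher, or 66.7% and 20.0%. Over all genes 29.5% were lower and 29.0% higher, the shares against which the counts of the next lists are also to be read. These lists were chosen with earlier results of these data known, so their shares cannot be read as a test. Among the lower surface partners were MHC class II genes, whose proteins gather in tetraspanin domains (H2-Eb1 -4.76, H2-Aa -4.28, H2-Ab1 -3.47 and the invariant chain Cd74 -3.44 on the log2 scale). Clec7a, which encodes the Dectin-1 that CD37 binds, fell to 37.4 ± 0.213 CPM in siHells, against 131 ± 1.09 CPM in siControl (SD, n = 2 each; log2 fold change -1.81), while Cd37 was higher. Cd36, a scavenger receptor found with CD9, fell by 0.92, and Mmp14, a membrane metalloproteinase, by 1.83. The exceptions were Vcam1, an adhesion molecule that gathers in CD9 and CD151 domains (5.42), Ifitm1 (0.36) and Cd47 (0.25). Of 11 genes that add or remove the palmitate on which tetraspanins rely, 4 were higher and 2 lower. Ppt1, a lysosomal thioesterase, led with a log2 fold change of 0.95, and Zdhhc2, an acyltransferase that acts on CD9 and CD151, had 0.74 with 1.54 ± 0.588 CPM in siHells and 0.924 ± 0.0061 CPM in siControl (SD, n = 2 each). Of 11 fusion genes other than tetraspanins, 7 fell and 4 rose. Dcstamp (-2.08) and Ocstamp (-1.91), membrane proteins needed for osteoclast fusion, fell by amounts near that of Cd9.

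**Figure D5:**
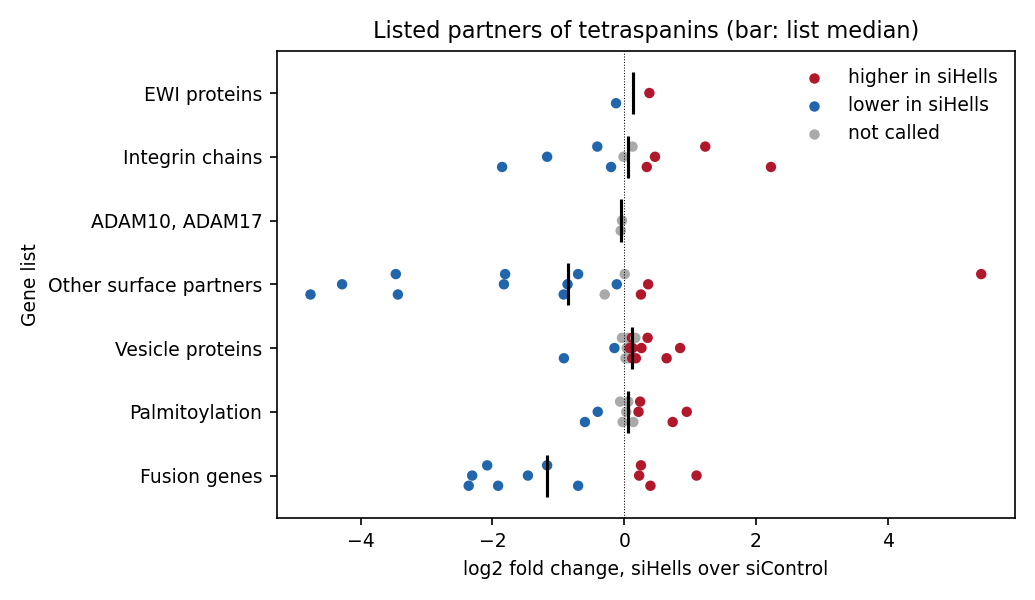
The log2 fold change, siHells over siControl (horizontal axis), for each tested gene of 7 partner lists (rows), with genes higher in siHells in red, lower in blue and not called in grey, and a bar at the list median. The lists of other surface partners and of fusion genes have medians of -0.86 and -1.17, and those of the other 5 lie between -0.04 and 0.13.

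The 5650 genes compared, all outside the family, had to reach 5 in mean log2 CPM, a bar below Cd9 (6.80) and Cd81 (6.97). Genes less abundant than either were thus included. By log2 CPM profile over the 4 libraries, the nearest to Cd9 was Matk, a tyrosine kinase of blood cells (log2 distance 0.0298). Next were Prdm1, the repressor Blimp1 (0.0915), and Bhlhe40, a transcription factor (0.0931). Nearest to Cd81 were Fam43a (0.0227), Tent5a, a poly(A) polymerase (0.0317), and Man2a1, a Golgi mannosidase (0.0572). With 2 groups of 2 libraries such likeness mostly reflects a similar size of change, which was -2.04 for Matk and 1.69 for Fam43a.

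Several members lie next to another tetraspanin gene. Cd151 and Tspan4 are 3.77 kb apart on chromosome 7, on the same strand, and moved by the same amount in opposite directions, 0.32 and -0.32. Polr2l, an RNA polymerase subunit gene between them, fell by 0.25. Tspan18 and Cd82 are 84.6 kb apart on chromosome 2, and both were lower, by 1.79 and 0.16. The value for Tspan18 rests on only 8 and 10 counts in siHells and 25 and 36 counts in siControl. Tspan32 and Cd81 are 33.1 kb apart on chromosome 7, and both were higher, by 1.10 and 1.70.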

How the data were processed

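Whole-number read counts per gene symbol were deposited by the authors without normalization, per the file headers and values, in 1 table with a column for each of the 4 libraries. Per the submitters' processing notes, the tools were edgeR, StringTie 2.1.3b, HISAT2 2.1.0, Trimmomatic 0.38 and FastQC, listed without role or order, with build mm10. No source used here gives the annotation release or strand setting. The lowest count was 1, so a gene with 0 reads in any library was not analysed here.

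Genes were filtered with filterByExpr (minimum count 10, minimum total 15), which removed 1543 and left 15651. They were scaled by TMM and tested by the edgeR 4.0.16 quasi-likelihood test (R 4.3.3, robust, group as the only term, 2 residual degrees of freedom), with Benjamini-Hochberg adjustment over all tested genes and a threshold of 0.05. A standard error is the size of the log2 fold change over the root of its F value, and intervals are at 95%. Within each group the libraries differed beyond counting noise (chi-square per gene 6.69 in siHells and 3.59 in siControl). Lengths and positions came from GENCODE M21 (GRCm38), matched for 93.2% of tested genes, and promoters from RefSeq. Alternatives included DESeq2 1.42.0 and limma 3.58.1. The members and lists were chosen with earlier results of these data known. The genes named were all 10 members, Hells, the 3 nearest profiles to Cd9 and to Cd81, listed neighbours and genes from each list. The plan was up to 6 per list with the smallest p, but it was not kept throughout. Itga3 and Itgb1 were named, while Itga5, Itgam and Itga4, with smaller p, were not. Cd36 was also named from outside the 6 smallest p of its list. Such genes, and others named to identify small counts or neighbours, were chosen after their values were seen.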

Additional observations from a re-analysis of the deposited data

How the results depend on the processing

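The direction of each of the 10 members was the same under all 16 alternatives. Cd9 ranged between -2.09 and -1.98, Cd81 between 1.63 and 1.74 and Tspan3 between 1.28 and 1.40 on the log2 scale, and these 3 stayed past the threshold in each. The other 7 fell short of it only against a 1.5-fold change, except that Cd82 also did without siControl replicate 1 (-0.14, edgeR adjusted p = 0.0727). Against a 1.5-fold change, 2 members were higher and 1 lower, 2 of the other tetraspanins were higher and 3 lower, 6 partner genes were higher and 20 lower, and over all genes 1261 were higher and 1096 lower. Requiring 1 CPM or more in 2 libraries left 2 other tetraspanins called lower, because Tspan10 and Tspan18 did not reach that level and were not tested. With that filter 6 others were called higher. Leaving out 1 library at a time left 6 members higher and between 3 and 4 lower, and between 3796 and 4442 genes higher and between 3999 and 4442 lower, with the lone library assumed to vary like the other group. With library totals in place of TMM the median log2 fold change of all genes was -0.08, and 40.7% of calls were higher, against 49.6%. With the replicate number as a block, 6 members were higher and 4 lower, and 4502 genes were higher and 4586 lower. Same-numbered libraries had a correlation of deviations of 0.0499 over genes. With 2 libraries a group, this value cannot tell whether same-numbered libraries came from the same mouse or culture. The sources used here do not say. The table holds 2 libraries a group, and counts of 10 stand for about 0.180 to 0.205 CPM, so the low tetraspanins are the least precise.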

Other observations

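Cd81 and Tspan32 lie in the distal part of chromosome 7 that holds a cluster of imprinted genes. Of 13 tested genes listed from that region, 3 were higher and 5 lower in siHells, or 61.5% called, near the 58.5% of all genes, with a median log2 fold change of -0.14. The nearest to Cd81 on the far side, Tssc4, was higher by 0.23, and Tnfrsf26 and Osbpl5 by 0.75 and 0.77, each less than Cd81. Those lower were Lsp1 (-1.12), Mrpl23 (-0.44), Nap1l4 (-0.31) and the imprinted H19 (-1.55) and Cdkn1c (-1.33). H19 had 36 and 40 counts in siHells and 100 and 117 counts in siControl, and Cdkn1c had 82 and 98 counts in siHells and 244 and 197 counts in siControl. Kcnq1ot1, the noncoding RNA of the imprinting centre, had 313 and 294 counts in siHells and 317 and 295 counts in siControl (log2 fold change -0.05, edgeR adjusted p = 0.743).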
